A study of Mus musculus with 6 samples.

Results

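A set of 9 genes that hold back or start cell division, several of them markers of cellular senescence, was followed in the aging mouse cerebral cortex. They were the CDK inhibitor genes Cdkn1b, Cdkn1c, Cdkn2a, Cdkn2b, Cdkn2c and Cdkn2d, the D cyclin genes Ccnd1 and Ccnd2, and the lamin B1 gene Lmnb1. The rows were taken by symbol, and these 9 of the 55421 genes in the files each had a single row. RNA was sequenced from the cortex of male wild type C57BL/6J mice killed under isoflurane by cervical dislocation, 3 of them 6 months old (mice 10, 11 and 17) and 3 of them 24 months old (mice 2, 4 and 5). The labels name no transgene or treatment, and age was the difference compared. Between 29495379 and 36494240 reads per mouse were counted on genes.

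The D cyclins bind and activate the kinases CDK4 and CDK6, which phosphorylate the retinoblastoma protein and so release the E2F factors that switch on genes of DNA replication. The Ink4 inhibitors (p16, p15, p18 and p19, from Cdkn2a, Cdkn2b, Cdkn2c and Cdkn2d) block CDK4 and CDK6, and the Cip/Kip inhibitors (p21, p27 and p57, from Cdkn1a, Cdkn1b and Cdkn1c) bind a wider range of cyclin and CDK complexes. Lamin B1 is a protein of the nuclear lamina. A rise of p16 and a loss of lamin B1 are widely used signs of senescence, a lasting arrest of division, although the neurons of the adult cortex have long left the cell cycle.

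Cdkn2a is the only one of these genes that makes 2 unrelated proteins, and it does so from 2 starts. One start gives the ARF transcript and the other, 12427 bases downstream in RefSeq, gives the transcript of p16 (Ink4a). Later exons are shared and are read in different frames. The sequence just upstream of each start is shown, because the files hold 1 value for the whole gene and so do not separate these transcripts. The Ink4a stretch ends at the RefSeq start, whereas the ARF stretch ends at the GENCODE start of the gene, which lies upstream of the RefSeq start. Both are 5′ to 3′ on the minus strand of GRCm38.p6, from the RefSeq windows, with capitals marking the letters GGGCGG on either strand. The ARF stretch is chr4:89294654-89294869 and the Ink4a stretch is chr4:89282193-89282442.
ARF start: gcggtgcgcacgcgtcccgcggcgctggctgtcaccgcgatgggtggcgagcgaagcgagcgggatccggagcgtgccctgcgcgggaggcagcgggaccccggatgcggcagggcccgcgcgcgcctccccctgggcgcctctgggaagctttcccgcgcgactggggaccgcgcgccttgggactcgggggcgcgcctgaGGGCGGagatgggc
Ink4a start: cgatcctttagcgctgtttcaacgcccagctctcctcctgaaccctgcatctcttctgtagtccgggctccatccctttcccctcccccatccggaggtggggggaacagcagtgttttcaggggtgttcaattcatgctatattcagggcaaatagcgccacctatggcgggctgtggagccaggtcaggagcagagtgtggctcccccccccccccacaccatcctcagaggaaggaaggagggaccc
The 216 bases printed for ARF held 35 CpG dinucleotides, 78.7% G or C, and 1 match to GGGCGG, and the whole RefSeq window of 250 bases held 40 CpG and 2 matches. The 250 bases before the Ink4a start held 7 CpG, 60.0% G or C, and no match, against a median of 6 CpG and 52.4% over 32851 promoter windows of 250 bases, of which 32.74% held GGGCGG.

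RefSeq windows were matched for 5 of the 9 genes, and the E2F letters TTTCGCGC or TTTGGCGC were in none of these 7 windows (0.6545% of all windows held them on either strand). The Ink4 genes are related in sequence. The longest run of bases that Cdkn2a and Cdkn2b transcripts have in common was 23 bases, shown because it is shorter than the 69 bases left of a clipped read.
Cdkn2a and Cdkn2b shared run: cgggaaggcttcctggacacgct
Over the 15 pairs compared among related genes here, the longest shared runs were 11 to 30 bases.

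At the level of mRNA abundance the genes spanned over 3 orders of magnitude. On the TPM scale, which divides by gene length, Cdkn2d had the highest mean over the 6 mice (213.6 TPM, rank 794 of all genes) and was followed by Ccnd1 (69.0 TPM) and Ccnd2 (48.1 TPM). Cdkn1c (33.3 TPM), Cdkn1b (11.0 TPM), Lmnb1 (6.01 TPM), Cdkn2c (4.79 TPM) and Cdkn2b (2.19 TPM) came next. Cdkn2a was last at 0.129 TPM, rank 40959. In 6 of 6 mice each gene lay above the next in this order, apart from Ccnd2 over Cdkn1c and Lmnb1 over Cdkn2c, each of which held in 4 of 6 mice. The ranges of those pairs overlapped at 24 months.

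**Figure D1:**
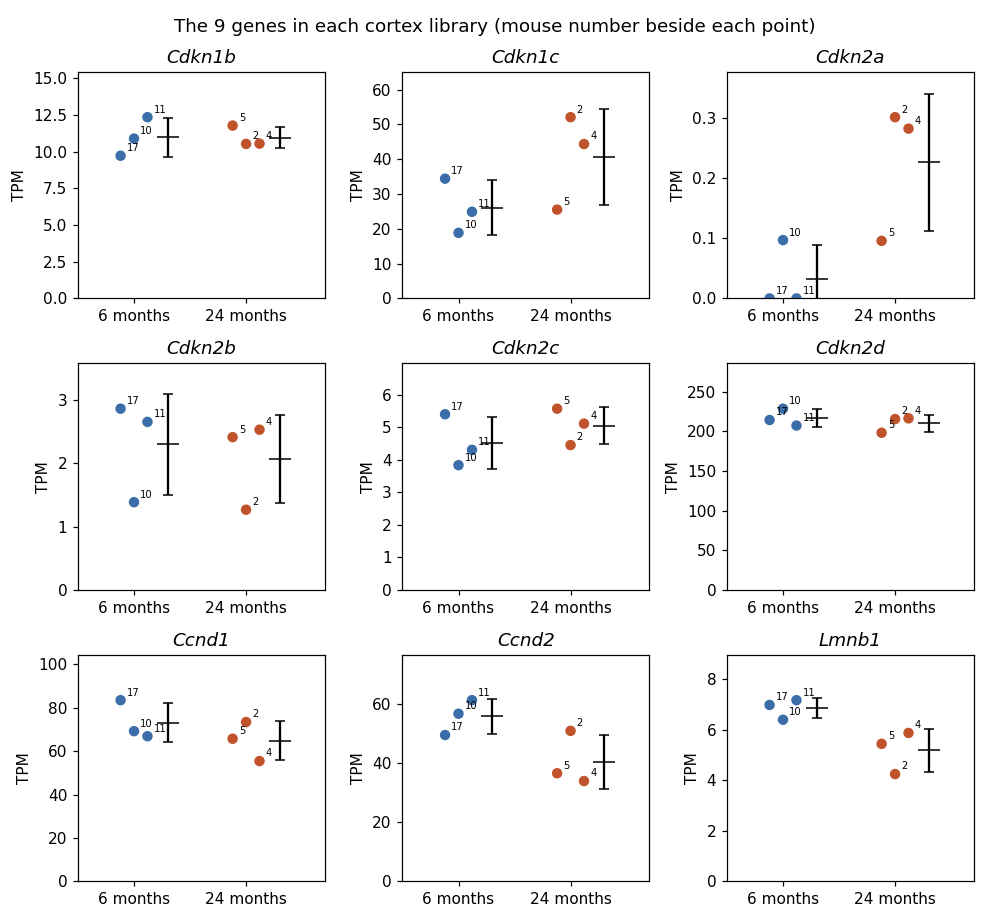
TPM of each of the 9 genes by age in a panel of its own, on linear axes from 0 that differ between panels, with 1 point per mouse (its number beside it) and bars for the mean and SD of 3 mice, cut at 0 for Cdkn2a. The older mice lie below all younger mice in the Lmnb1 panel only, and the Cdkn2a panel ends far below the others, with its highest mouse at 0.301 TPM.

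Read over all 9 genes, 2 were lower at 24 months and 0 were higher. Ccnd2 and Lmnb1 fell to 0.670 and 0.701 of their 6-month level in scaled counts (n = 3 mice each), and they passed a 10% false discovery rate (FDR) in edgeR's quasi-likelihood test with Benjamini-Hochberg adjustment over 32905 genes. The test could be run on 8 of the 9, since Cdkn2a had fewer than the 10 counts asked for. These 2 of 8 stand beside a background in which 8.33% of all genes tested were called lower and 10.0% higher. Among the 15761 genes with a mean of at least 1 CPM (counts scaled to library size), to which 7 of the 9 belong, 17.3% were lower and 2.43% higher, and 2 of 7 genes are too few to be told from that share of lower genes. At 1% FDR 0 of the genes were called, as were 0% of all genes in this test. Neither edgeR's likelihood ratio test nor DESeq2's Wald test called any of the 9 at 1% FDR, where they called 1703 and 227 of all genes. At an unadjusted p under 0.05 there were 3, all lower (Ccnd2, Lmnb1 and Ccnd1), where 13.1% of all genes tested were lower by that rule. With library totals there were 2, Ccnd2 (lower) and Cdkn1c (higher), where 9286 of 32905 genes tested had such a p. The p-values set each age difference against a spread between these mice that is estimated with information from all genes.

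Each fold change depends on how libraries are scaled, and here the scaling differed with age. The TMM factors of edgeR were 0.921 to 0.946 at 6 months and 1.04 to 1.10 at 24 months, and the genes tested had a median log2 fold change of 0.15, whereas it was -0.14 for those with a mean of at least 1 CPM. With library totals alone these medians became 0.34 and 0.05. All log2 fold changes compare 24 with 6 months under TMM factors, and some are also given relative to the median of -0.14 of expressed genes.

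None of the 3 Ink4 genes that could be tested was called, and edgeR gave none of them an unadjusted p under 0.05. Cdkn2d (ENSMUSG00000096472.2, chr9:21288410-21291407, minus strand) made up 96.1 to 97.7% of the summed TPM of the 4 genes. Its values were 228.8, 207.5 and 214.5 TPM in the 6-month mice 10, 11 and 17 and 215.7, 216.6 and 198.4 TPM in the 24-month mice 2, 4 and 5. The ages overlapped on this scale. On TMM-scaled counts they did not, with 97.1 ± 5.48 CPM at 6 months and 86.9 ± 4.22 CPM at 24 months (SD, n = 3). All older mice were likewise below in 16.3% of all genes tested and 32.5% of expressed genes. The log2 fold change of Cdkn2d was -0.16 (standard error, SE, 0.091, with an adjusted p of 0.254 by edgeR's quasi-likelihood test). Relative to the median of expressed genes it was -0.02, and with library totals the value turned to 0.035.

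Cdkn2c, which encodes p18 (ENSMUSG00000028551.14, chr4:109660876-109667189, minus strand), was found at 3.84, 4.31 and 5.41 TPM at 6 months and 4.46, 5.12 and 5.58 TPM at 24 months. The ages overlapped and the log2 fold change was 0.05, with a 95% interval of -0.36 to 0.46 (adjusted p = 0.881, edgeR's quasi-likelihood test). Its sign depended on single mice, becoming -0.049 when mouse 10 of the younger group was left out and -0.025 when mouse 5 of the older group was. Cdkn2b, which encodes p15 (ENSMUSG00000073802.5, chr4:89306299-89311039, minus strand), had 17, 36 and 37 counts in the younger and 15, 32 and 30 counts in the older mice, or 1.39, 2.65 and 2.86 against 1.27, 2.53 and 2.41 TPM. Mouse 10 among the younger and mouse 2 among the older were low. The log2 fold change was -0.26 with a 95% interval of -1.05 to 0.52 (adjusted p = 0.634, edgeR's quasi-likelihood test), so values within this interval could not be told apart at these counts. Single mice moved the log2 fold change from -0.51 (mouse 10 left out) to -0.004 (mouse 2 left out), and it was -0.08 with library totals.

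Cdkn2a, the p16 and ARF gene (ENSMUSG00000044303.6, chr4:89274471-89294653, minus strand), was at the limit of detection. Reads were counted on it 1, 0 and 0 times at 6 months and 3, 3 and 1 times at 24 months, 8 in all. In TPM this was 0.0967, 0 and 0 at 6 months and 0.301, 0.282 and 0.0954 at 24 months. The 24-month mouse 5 and the 6-month mouse 10 had 1 count each, and their order turned with the scale, mouse 5 being just under mouse 10 in TPM and just above it in CPM by library totals, so this order carries no information. Every library was at or below the floor of 3 counts, and no fold or test is given. The mean TPM of 1831 sensory receptor genes, families with little known activity in cortex, was 0.0720, 0.0792 and 0.0835 at 6 months and 0.315, 0.265 and 0.195 at 24 months. In mice 2 and 4 the level of Cdkn2a lay near that mean and in mouse 5 it was lower. The part of the shift of those families in the few Cdkn2a counts was not tested. The neighbouring Cdkn2b, 11.6 kb away, did not share the pattern in its counts.

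**Figure D2:**
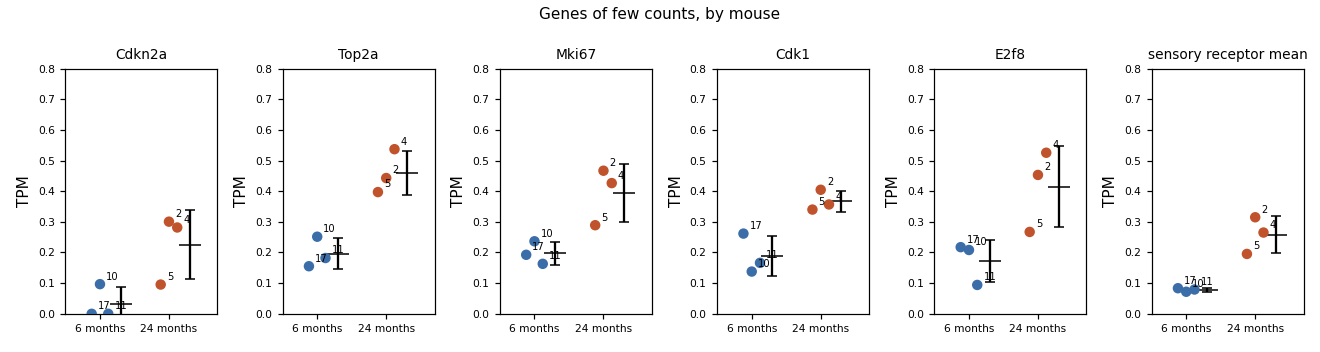
TPM by mouse for Cdkn2a, for 4 pathway genes of few counts described further on (Top2a, Mki67, Cdk1 and E2f8) and for the mean of the sensory receptor genes, on equal linear axes from 0; points are mice with their numbers and bars are the mean and SD of 3 mice, cut at 0 for Cdkn2a. Cdkn2a reaches 0.301 TPM in the 24-month mouse 2, in which the sensory receptor mean is 0.315 TPM.

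Among the Cip/Kip inhibitors, Cdkn1c had the largest positive value and Cdkn1b stayed within the spread. Cdkn1c, the imprinted p57 gene (ENSMUSG00000037664.13, chr7:143458339-143461050, minus strand), had 18.8, 24.9 and 34.4 TPM at 6 months and 52.1, 44.3 and 25.5 TPM at 24 months. Mice 2 and 4 of the older group lay above all younger mice and the older mouse 5 lay within their range. The means were 26.0 ± 7.84 and 40.6 ± 13.7 TPM (SD, n = 3). The log2 fold change was 0.53 (SE 0.268, 95% interval -0.07 to 1.13, with an adjusted p of 0.206 by edgeR's quasi-likelihood test), a difference that does not exceed the spread between mice. The call turned on mouse 5, since without it the log2 fold change was 0.78 and the gene was called higher (adjusted p = 0.0525, edgeR's quasi-likelihood test). Calls over all genes rose in that fit too, to 4364 higher from 3299. The value for Cdkn1c was positive under all 13 alternatives, from 0.32 (older mouse 2 left out) to 0.78 (younger mouse 17 left out).

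The order of the mice in Cdkn1c was the reverse of their order in the summed TPM of 7 neuronal markers, a relation picked after the values were seen. At 6 months these markers summed to 5126, 4604 and 4470 TPM (mice 10, 11 and 17), and at 24 months to 3621, 4114 and 4591 TPM (mice 2, 4 and 5). Markers of pericytes and vascular smooth muscle, of meningeal fibroblasts and of choroid plexus, whose cells could reach a cortical dissection, overlapped between the ages. Their sums were 144.7 to 205.1 against 121.0 to 267.9 TPM, 21.6 to 53.1 against 23.6 to 65.4 TPM and 42.8 to 119.2 against 54.9 to 123.7 TPM. Their part in the values of Cdkn1c was not tested. In bulk tissue, fewer cells of a type and less RNA per cell cannot be told apart.

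Cdkn1b, which encodes p27 (ENSMUSG00000003031.14, chr6:134920401-134925513, plus strand), had 10.9, 12.3 and 9.71 TPM at 6 months and 10.5, 10.5 and 11.8 TPM at 24 months. The ages overlapped, with means of 11.0 ± 1.32 and 10.9 ± 0.715 TPM (SD, n = 3). The log2 fold change was -0.12 with a 95% interval of -0.40 to 0.17 (adjusted p = 0.554, edgeR's quasi-likelihood test), and its value turned to 0.072 with library totals and to 0.008 without the 6-month mouse 11. For the remaining member of the family, Cdkn1a (p21), which is also a target of p53, the values were 21.5, 24.3 and 26.1 TPM at 6 months and 43.9, 14.1 and 13.9 TPM at 24 months. The older mice lay on both sides of the younger ones (log2 fold change -0.12, adjusted p = 0.857, edgeR's quasi-likelihood test). The share of Cdkn1c in the summed TPM of the family was 36.8 to 49.0% at 6 months and 48.9 to 64.3% at 24 months, so that the ages met at their edges.

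Of the D cyclins, Ccnd2 was called lower at 24 months and Ccnd1 was not. Ccnd2 (ENSMUSG00000000184.12, chr6:127125162-127152193, minus strand) had 152.7, 162.9 and 132.2 CPM in the 6-month mice 10, 11 and 17 and 125.7, 83.9 and 90.4 CPM in the 24-month mice 2, 4 and 5 with TMM factors. All 3 older mice were below all 3 younger mice on this scale, as were 16.3% of all genes tested and 32.5% of genes with a mean of at least 1 CPM. In TPM, without TMM factors, the values were 56.7, 61.3 and 49.5 against 50.9, 33.9 and 36.6, and the older mouse 2 lay just above the younger mouse 17.

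Ccnd2 averaged 149.3 ± 15.7 CPM at 6 months and 100.0 ± 22.5 CPM at 24 months (SD, n = 3), and its fold change was -0.58 on the log2 scale (SE 0.152, 95% interval -0.92 to -0.24, with an adjusted p of 0.0611 by edgeR's quasi-likelihood test). Relative to the median of expressed genes it was -0.43. The direction held in all alternatives and the call did not. Without the 6-month mouse 10, the 6-month mouse 11 or the 24-month mouse 4 the adjusted p was 0.152, 0.199 and 0.182, and with library totals it was 0.157 at a log2 fold change of -0.38 (all edgeR's quasi-likelihood test). Ccnd2 shares exonic bases with the antisense genes Gm43126 (372 bases) and 9330179D12Rik (368 bases), and the library kit does not mark the strand. The latter had 207 to 270 counts at 6 months and 214 to 308 at 24 months, against 4328 to 5624 and 2902 to 4079 counts for Ccnd2.

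Ccnd1 (ENSMUSG00000070348.5, chr7:144929931-144939925, minus strand) had 69.2, 66.9 and 83.5 TPM at 6 months and 73.4, 55.4 and 65.7 TPM at 24 months. The ages overlapped, with the older mouse 2 above the younger mice 10 and 11. The fold change was -0.29 on the log2 scale (SE 0.128, with an adjusted p of 0.159 by edgeR's quasi-likelihood test), -0.15 relative to the median of expressed genes. It moved to -0.18 when the younger mouse 17 or the older mouse 4 was left out and to -0.09 with library totals, with unadjusted p-values of 0.202, 0.218 and 0.490 in edgeR. Ccnd1 shares 1100 exonic bases with LTO1 on the opposite strand, which had 616 to 790 counts where Ccnd1 had 2373 to 3654.

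Whether the 2 cyclins moved apart was asked with their ratio within each mouse, which needs no scaling between libraries. The log2 ratio of Ccnd1 over Ccnd2 TPM was 0.29, 0.13 and 0.75 at 6 months and 0.53, 0.71 and 0.85 at 24 months. The older mice tended to the high end but the younger mouse 17 lay above 2 of them. The means differed by 0.31 (0.39 ± 0.33 and 0.69 ± 0.16, SD, n = 3; exact permutation test, two-sided, p = 0.3, where 3 against 3 allow no p below 0.1), so a fall of Ccnd2 against Ccnd1 was not resolved. The summed TPM of Ccnd1, Ccnd2 and Ccnd3 was 136.0, 138.6 and 143.5 at 6 months and 135.0, 100.7 and 112.0 at 24 months, with all older mice below the younger ones, although mouse 2 by only a small margin. Ccnd3 itself was at 10.4 ± 0.198 and 10.6 ± 0.804 TPM (SD, n = 3), and its share of the sum was 7.33 to 7.55% at 6 months and 7.92 to 11.2% at 24 months, without overlap.

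**Figure D3:**
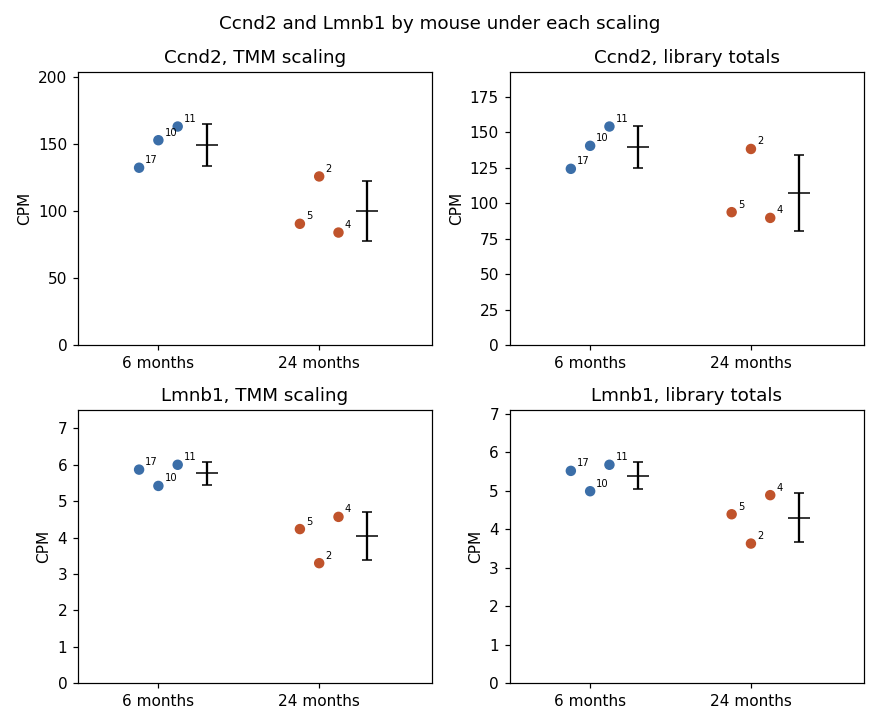
CPM of Ccnd2 (top) and Lmnb1 (bottom) by age with TMM factors (left) and with library totals (right), on linear axes from 0, with 1 numbered point per mouse and bars for the mean and SD of 3 mice. Lmnb1 has all older mice below the younger ones in both panels, whereas for Ccnd2 the 24-month mouse 2 lies above the 6-month mouse 17 with library totals.

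As a description of its pattern over the 6 mice, the log2 CPM of Ccnd2 was most like that of Tkfc (Pearson's r = 0.997), CK137956 (r = 0.995) and Bag2 (r = 0.994), out of 18561 genes that averaged 1 TPM or more. Of these genes 108 had r of at least 0.95, and the 6 points share their libraries and scaling factors.

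Lmnb1 (ENSMUSG00000024590.8, chr18:56707813-56753424, plus strand) was lower in each older mouse. At 6 months its counts were 167, 207 and 192 (mice 10, 11 and 17), against 107, 158 and 144 at 24 months (mice 2, 4 and 5). In TPM these were 6.39, 7.16 and 6.97 against 4.24, 5.87 and 5.44. The ages did not overlap in TPM, with TMM factors or with library totals, and Lmnb1 was the only one of the 8 tested genes of which this holds on all 3 scales. With TMM factors 16.3% of all genes tested and 32.5% of expressed genes had all older mice below. That share was not counted on the other scales, so 1 of 8 cannot be set against a background. Mouse 2 was the lowest.

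Lmnb1 averaged 5.76 ± 0.304 CPM at 6 months and 4.03 ± 0.658 CPM at 24 months (SD, n = 3), and its fold change was -0.51 on the log2 scale (SE 0.164, 95% interval -0.88 to -0.15, with an adjusted p of 0.081 by edgeR's quasi-likelihood test), or -0.37 relative to the median of expressed genes. The fold kept its sign throughout, between -0.61 and -0.32. The call was less firm. Of the 6 fits that leave out a mouse it was kept only without the 24-month mouse 5 (adjusted p = 0.0817), where 7998 of all genes were called. Without mouse 10, 11 or 4 only 0, 1 and 0 of all genes were called, and without mouse 17 or 2 there were 2476 and 176. With library totals the adjusted p was 0.213 at a log2 fold change of -0.32 (both edgeR's quasi-likelihood test).

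The other lamins did not pass the call. The log2 fold change was -0.25 for Lmna (adjusted p = 0.106) and -0.30 for Lmnb2 (adjusted p = 0.117, both edgeR's quasi-likelihood test), or -0.11 and -0.15 relative to the median of expressed genes. Like Lmnb1, both had all older mice below all younger mice in TPM and with TMM factors, an order that 32.5% of expressed genes had with TMM factors. With library totals the ages overlapped in both. The summed TPM of the 3 lamins was 71.0 ± 2.94 at 6 months and 63.0 ± 3.60 at 24 months (SD, n = 3). The share of Lmnb1 in it was 9.16 to 10.1% at 6 months and 6.57 to 9.24% at 24 months, which overlapped.

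**Figure D4:**
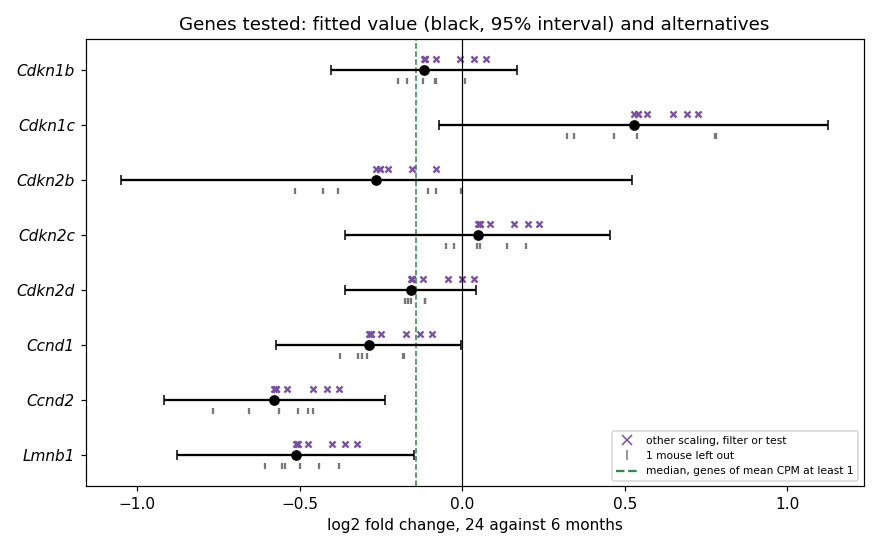
Log2 fold change (24 against 6 months) of the 8 tested genes, with black points and bars for the fitted value and its 95% interval, crosses for the other scalings, filters and tests, ticks for the fits with 1 mouse left out, and a dashed line at the median of genes with a mean of at least 1 CPM (-0.14). The intervals of Ccnd2, Lmnb1 and Ccnd1 lie below 0, and the marks of Cdkn1b, Cdkn2c and Cdkn2d fall on both sides of it.

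Around these genes, 101 genes of the same pathways were read from lists. Of these, 6 were called higher (5.94%) and 15 lower (14.9%) at 10% FDR in edgeR's quasi-likelihood test, with a median log2 fold change of -0.11. All 15 lower genes were among the 78 with a mean of at least 1 CPM, where they made up 19.2%, beside 17.3% of all such genes. Of the 6 higher genes 5 had a mean under 1 CPM. The balance of directions depended on the scaling. With library totals 7 were higher and 1 was lower (Syne1), the median was 0.09, and over all genes tested 4121 were higher and 318 lower, against 3299 and 2741 with TMM factors. The 6 higher genes (Mmp12, Mmp3, Top2a, Hmgb2, Mki67 and Il6) were called under both scalings, although Mmp12 and Mmp3 had fewer than 10 counts over the younger mice and entered the test only through the older ones, and E2f8 was added with library totals. The lower calls other than Syne1 were lost.

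In the D cyclin, CDK and Rb axis 1 of 6 genes was called lower (16.7%, near the 17.3% of expressed genes). It was Rbl2, a relative of the retinoblastoma gene, by edgeR's quasi-likelihood test (log2 fold change -0.38, adjusted p = 0.0636). The kinase genes that the D cyclins and Ink4 inhibitors act on were within the spread, with log2 fold changes of -0.15 for Cdk4 and 0.16 for Cdk6. Of 7 later cyclins and CDKs 1 was called lower (14.3%, beside 8.33% of all genes tested), or 25.0% of the 4 expressed ones, beside 17.3%. It was Ccne1 (cyclin E1), from 34.6 to 41.9 TPM at 6 months down to 27.2 to 32.6 TPM at 24 months (log2 fold change -0.47, adjusted p = 0.0584, same test of edgeR). Cdk1, the mitotic kinase, had 6, 8 and 12 counts against 17, 16 and 15 and was not called (adjusted p = 0.149, edgeR). None of the 10 E2F and DP genes was called. In edgeR's test 2 had an unadjusted p under 0.05, both higher, where 10097 of 32905 genes tested had such a p and 4317 of those were lower. The smallest was that of E2f8 with 10, 5 and 11 against 21, 26 and 13 counts (adjusted p = 0.104, edgeR).

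Of 14 genes of replication and mitosis 2 were higher and 2 were lower (14.3% each), beside 10.0% higher and 8.33% lower over all genes tested. Both higher genes had a mean under 1 CPM, where that share exceeded 10.0%, since it was 2.43% among expressed genes. The lower ones were 28.6% of the 7 expressed genes of the list, beside 17.3% of all expressed genes. Top2a and Mki67, which mark dividing cells, had 20, 16 and 13 against 34, 44 and 32 counts and 21, 16 and 18 against 40, 39 and 26 counts (adjusted p = 0.0575 and 0.0845 by edgeR's quasi-likelihood test). All older mice were above all younger mice in both, an order whose share over all genes was not counted. In TPM, Top2a went from 0.155 to 0.252 up to 0.397 to 0.537, while the sensory receptor genes described for Cdkn2a went from 0.0720 to 0.0835 up to 0.195 to 0.315 TPM in the same libraries. The part of that shift in these values was not tested. The lower genes were Mcm6 and Mcm4, subunits of the replicative helicase, with log2 fold changes of -0.49 and -0.41 (adjusted p = 0.0628 and 0.085 by edgeR's quasi-likelihood test). Mki67 and Mcm4 were named after their values were seen.

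Among genes that act on the Ink4 locus, such as the Polycomb proteins that hold it silent, 3 of 15 were lower (20.0%) and 0 higher, near the 17.3% lower and 2.43% higher of expressed genes. Their median of -0.25 stands beside -0.14 for expressed genes, and 13 had a negative value (8 with library totals). Ets2, a transcription factor known to activate p16, went from 54.6, 58.4 and 47.9 TPM to 43.1, 43.3 and 36.2 TPM (log2 fold change -0.50, adjusted p = 0.0526 by edgeR's quasi-likelihood test). The other two were the Polycomb genes Rnf2 and Ezh1, named after their values were seen, with log2 fold changes of -0.44 and -0.30 (adjusted p = 0.0687 and 0.0776 by edgeR's quasi-likelihood test). Of the 8 genes for the turnover of p27 and D cyclins 2 were lower (25.0%, where 17.3% of expressed genes were). They were Cul1, a ubiquitin ligase scaffold, and Skp2, the receptor that brings p27 to it, with log2 fold changes of -0.30 and -0.47 (adjusted p = 0.0709 and 0.0832 by edgeR's quasi-likelihood test). Skp2 was named after its values were seen. Of the 5 genes of the ARF, Mdm2 and p53 axis 1 was lower (20.0%, where 17.3% of expressed genes were). It was Mdm2, the ligase that degrades p53 (log2 fold change -0.40, adjusted p = 0.0594, same test of edgeR).

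Of 16 genes of lamins and the nuclear envelope 4 were lower (25.0%) and 0 higher, beside 17.3% and 2.43% of expressed genes. The median was -0.28, against -0.14 for expressed genes, and 13 had a negative value (12 with library totals, where the medians were -0.09 and 0.05). Syne1, the gene of the linker protein nesprin 1, went from 52.2, 49.6 and 49.2 TPM to 35.5, 38.4 and 44.0 TPM (log2 fold change -0.47, adjusted p = 0.0518 by edgeR's quasi-likelihood test). The others, named after their values were seen, were Sun1, which binds nesprins, and Zmpste24 and Icmt, which process lamins after farnesylation, with log2 fold changes of -0.43, -0.36 and -0.33 (adjusted p = 0.0845, 0.0827 and 0.0745 by edgeR's quasi-likelihood test).

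Of 19 genes of the senescence secretome and other senescence-linked genes, 4 were called higher (21.1%) and 1 lower (5.26%), beside 10.0% higher and 8.33% lower over all genes. The lower gene made up 12.5% of the 8 expressed genes of the list, beside 17.3% of all expressed genes. Of the 4 higher genes 3 had a mean under 1 CPM. Among all expressed genes 2.43% were higher, so the share under 1 CPM exceeded 10.0%. No excess is read from the 21.1%. Mmp12, a macrophage metalloproteinase, had counts of 1, 3 and 3 against 12, 22 and 17, and Mmp3, another metalloproteinase, of 2, 2 and 4 against 16, 12 and 10. Both passed the filter of 10 counts only through the group in which they are high, so their calls are no independent result and no p is given. The others were the cytokine Il6 and Hmgb2, with 2, 7 and 8 against 31, 14 and 12 counts and 54, 53 and 51 against 76, 75 and 87 counts (adjusted p = 0.0825 and 0.0893 by edgeR's quasi-likelihood test). Mmp3, Il6 and Hmgb2 were named after their values were seen. All older mice lay above all younger mice in Il6 and Hmgb2, an order whose share over all genes was not counted. Hmgb2, a chromatin protein that is known to fall in senescent cells, was thus higher. Glb1, which encodes the enzyme behind the lysosomal β-galactosidase stain of senescent cells, was lower (log2 fold change -0.34, adjusted p = 0.0753, same test of edgeR). In the same libraries the sums of 7 microglial markers were 526.2 to 561.7 TPM at 6 months and 586.6 to 676.5 TPM at 24 months, and those of 6 astrocyte markers were 941.9 to 1003 and 1051 to 1077 TPM, without overlap in either. With TMM factors the median log2 fold change was 0.185 over the microglial markers, with 1 called higher and 1 lower. Over the astrocyte markers it was -0.124, with 1 called higher and 0 lower. The part of these cell types in the values of the senescence-linked genes was not tested.

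**Figure D5:**
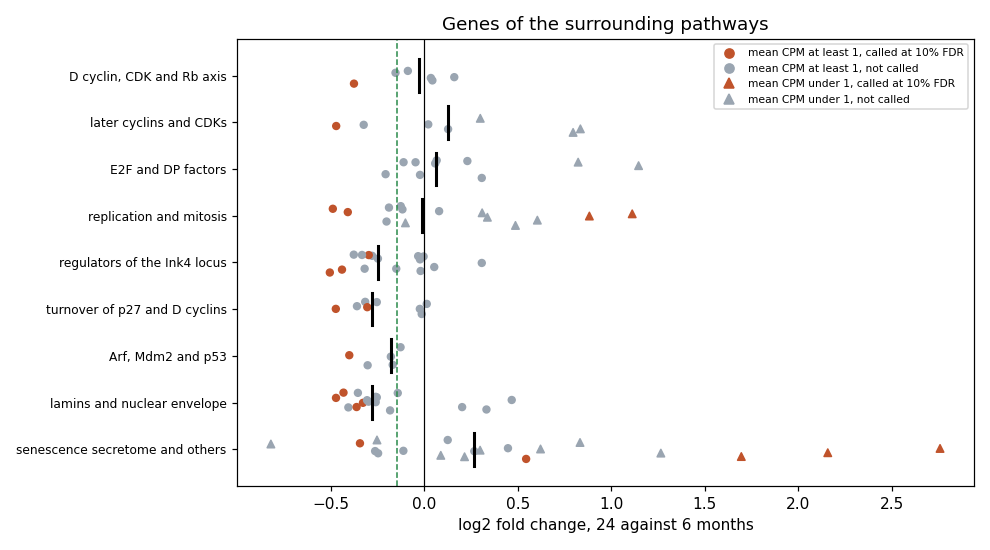
Log2 fold change (24 against 6 months) of the pathway genes by list, Cdkn1a not drawn, with circles for genes of a mean of at least 1 CPM and triangles for lower ones, orange where called at 10% FDR, a black bar at each list's median and a dashed line at the median of expressed genes (-0.14). The orange points right of 0 are triangles apart from Hmgb2, and the triangle farthest right, Mmp12, is a fitted value on at most 3 counts per mouse at 6 months.

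All libraries had the neuronal and glial markers of cortex, and no marker of the 11 cell type lists was at 0 in every mouse. Oligodendrocyte markers ranged from 1357 to 2144 TPM at 6 months and from 800.3 to 2484 TPM at 24 months, the lowest being mouse 2, and markers of striatal neurons from 161.6 to 185.2 and 124.6 to 175.0 TPM. The older libraries had counts on 40208 to 43561 genes and the younger on 33974 to 35651.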

How the data were processed

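RNA-seq libraries of the cortex of 6 mice were analysed. The authors trimmed reads with Trim Galore 0.6.4, mapped them with STAR 2.7.3a to GRCm38, counted them on exons by gene with featureCounts (Subread 2.0.0) and deposited a count and a TPM value per gene and mouse. The stated options split reads among several positions, but the deposited counts are whole numbers. The TPM values were computed by the authors from counts and exonic lengths.

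Counts were scaled by TMM in edgeR 4.0.16 (R 4.3.3), genes whose counts summed to 10 or more entered the quasi-likelihood test, which had no covariates, and p-values were adjusted by the Benjamini-Hochberg method over all 32905 genes. Called means 10% FDR, because at the 1% of the study this test gave no gene. Alternatives were DESeq2 1.42.0 size factors and Wald test, library totals, other filters, the likelihood ratio test and leaving out each mouse. The script was tested on simulated data. The genes and all lists were chosen with earlier results of these data known. The genes named beyond the 9 are Cdkn1a and, per pathway list, the gene with the smallest unadjusted p under 0.05 in each direction, with exceptions marked. Positions are from GENCODE vM21 (GRCm38). Python 3.11.15, pandas 2.3.3 and scipy 1.17.1 were used. Low genes rest on few counts at these depths, and intervals cover the fitted spread only.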

Additional observations from a re-analysis of the deposited data

How the results depend on the processing

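No paired analysis was possible because the 2 ages were sampled from different mice. Of the 9 genes 2 were called in edgeR. The number was 0 with library totals, with filterByExpr and with a mean of at least 1 CPM as the filter. In each of these settings edgeR gave 2 with an unadjusted p under 0.05. Over all genes 9286 of 32905, 4714 of 20490 and 2857 of 15793 had such a p, in the same order. With library totals the 2 were Ccnd2 at 0.0391 and the higher Cdkn1c at 0.0265, while Lmnb1 had 0.0714 (edgeR). The number called was 1 with a filter of 1 count, and 0 to 3 with a mouse left out. The likelihood ratio test and the Wald test of DESeq2 gave 2 each. Ccnd2 and Lmnb1 had adjusted p-values of 0.157 and 0.213 with library totals, 0.163 and 0.179 with filterByExpr and 0.272 and 0.264 with the mean CPM filter (edgeR), and Lmnb1 had 0.127 with a filter of 1 count. The Cdkn1c call without the 24-month mouse 5 is the only one gained, in a fit that called 7998 of all genes. Of the pathway genes 21 were called, against 8 with library totals, 12 with a filter of 1 count, 5 with filterByExpr, 0 with the mean CPM filter (11 at an unadjusted p under 0.05, beside 2857 of all 15793 genes) and 12 with the Wald test of DESeq2, and 0 to 27 with a mouse left out. Of all genes 6040 were called, 4014 with a filter of 1 count, 1538 with filterByExpr, 66 with the mean CPM filter, 3048 with the Wald test and 0 to 7998 with a mouse left out. The number was 0 without mouse 10 or mouse 4 and 1 without mouse 11 (7405, 6688 and 6654 genes with an unadjusted p under 0.05 in edgeR). Lost calls of single genes in those fits thus follow a loss over all genes. The log2 fold change reversed for Cdkn1b (0.072 with library totals, 0.036 with the mean CPM filter, 0.008 without the 6-month mouse 11), Cdkn2c (-0.049 without the 6-month mouse 10, -0.025 without the 24-month mouse 5) and Cdkn2d (0.035 with library totals), and the causes were not tested. Without a mouse, Cdkn2b ranged from -0.51 to -0.004, Ccnd1 from -0.38 to -0.18, Cdkn1b ranged from -0.20 to 0.01 and Cdkn2c from -0.05 to 0.20. Cdkn2b has no value under the mean CPM filter. The log2 ratio of Ccnd1 over Ccnd2 differed between ages by 0.17 to 0.49 with a mouse left out. Cdkn2a was too low for any test at this depth.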
